A study of Mus musculus with 6 samples.

Results

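Genes of the growing axon, 10 in all and called members here, were followed in RNA-seq of cultures described as primary mouse motoneurons. They were chosen by name: the growth cone membrane proteins Gap43, Basp1 and Marcks, the stathmins Stmn1, Stmn2, Stmn3 and Stmn4, and the microtubule and cytoskeleton genes Dpysl3, Dcx and Tubb3. Each name matched 1 of the 39174 genes in the tables, and all 10 were among the 14611 genes tested. There were 3 Nmd-/- and 3 Nmd+/+ libraries, numbered 1 to 3 within each genotype, all labelled as the CD-1 strain. Nmd is the neuromuscular degeneration allele of the helicase gene Ighmbp2, and mutations of the human gene cause spinal muscular atrophy with respiratory distress. The labels state neither the age nor the sex of the animals. They also do not say whether replicates are separate cultures, so the p-values cover only the variation among these libraries, part of which may be technical.

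The growth cone is the motile tip of an extending axon, where membrane is added and where actin and microtubules are remodelled in response to guidance cues. GAP-43, CAP-23 (the product of Basp1) and MARCKS sit on the inner face of the plasma membrane, hold phosphoinositides and are released or modified by protein kinase C and calmodulin. Stathmins bind free tubulin and promote the shortening of microtubules, an activity that phosphorylation switches off. Stathmin 1 is cytosolic and is also made by dividing cells, whereas the products of Stmn2, Stmn3 and Stmn4 carry a palmitoylated N-terminal extension that anchors them to Golgi-derived membranes and growth cones in neurons.

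Levels are in FPKM, fragments scaled to transcript length and to the mapped fragments of the library, which the authors computed with Cufflinks for each library on its own. The tables hold no counts. The 95% interval of each FPKM gives the estimation error within a library: its half-width was between 0.883% (Basp1) and 7.83% (Stmn4) of the value for the members. Summed FPKM lay between 664628 and 693258 per library. Ighmbp2, the gene of the Nmd allele, measured 0.876, 0.788 and 0.598 FPKM in the Nmd-/- libraries, all below the 1.44, 1.30 and 1.09 FPKM of the Nmd+/+ libraries. Its mean of 1.02 FPKM was just above the lowest mean tested, and its log2 difference of -0.38 did not pass (limma adjusted p = 0.9997). Of the defining motoneuron genes, Chat and Mnx1 were close to 0, with highest values of 0.0692 FPKM for Chat and 0.0247 FPKM for Mnx1. Isl1, a transcription factor gene also active in other neurons, measured 1.75, 0.608 and 1.12 FPKM in Nmd-/- replicates 1, 2 and 3, and 1.69, 0.896 and 1.81 FPKM in Nmd+/+ replicates 1, 2 and 3. Of the 9 motoneuron markers found in the tables Chat, Mnx1, Isl2, Prph and Slc5a7 stayed under 1 FPKM in all 6. These low values do not bear out the name motoneuron, and the members' levels cannot be assigned to motoneurons. Each value below is that of the culture as sequenced, in which fewer neurons and less RNA per neuron cannot be told apart. The libraries numbered 2 also carried more fibroblast transcripts: 7 such markers summed to 371 FPKM in Nmd-/- replicate 2, against 86.4 and 78.3 FPKM in Nmd-/- replicates 1 and 3, and to 322 FPKM in Nmd+/+ replicate 2, against 74.3 and 44.7 FPKM in Nmd+/+ replicates 1 and 3.

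RefSeq promoter sequences (GRCm38.p6) were matched by symbol for 4 of the 10 members. All 4 are shown, as no other member was matched. These 4 genes took different parts in the common movement described below: Tubb3 and Stmn3 varied most between libraries, Dcx to an intermediate degree and Basp1 least of the 4. No link between that variation and the sequences was tested. Each is given 5′ to 3′ on the gene's own strand, from 250 bases before the RefSeq start up to that start or to the first base that GENCODE M21 assigns to the gene, whichever comes first. Capitals mark matches on either strand to TATAA, the core bound by the TATA-binding protein, GGGCGG, which Sp-family factors bind, CCAAT, the NF-Y motif, and CAGCTG, bound by some basic helix-loop-helix factors.
Basp1, chr15:25413765-25414014, minus strand: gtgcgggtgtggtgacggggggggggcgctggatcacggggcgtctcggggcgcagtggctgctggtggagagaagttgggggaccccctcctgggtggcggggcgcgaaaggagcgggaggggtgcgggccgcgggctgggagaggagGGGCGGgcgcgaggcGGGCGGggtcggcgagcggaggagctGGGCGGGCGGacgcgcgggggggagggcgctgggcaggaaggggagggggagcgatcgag
Stmn3, chr2:181314501-181314750, minus strand: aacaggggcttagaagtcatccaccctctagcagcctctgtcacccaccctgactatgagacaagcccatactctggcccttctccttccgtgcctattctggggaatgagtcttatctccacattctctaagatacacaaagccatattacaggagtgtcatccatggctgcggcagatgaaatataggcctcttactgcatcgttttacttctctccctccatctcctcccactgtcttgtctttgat
Dcx, chrX:143933312-143933469, minus strand: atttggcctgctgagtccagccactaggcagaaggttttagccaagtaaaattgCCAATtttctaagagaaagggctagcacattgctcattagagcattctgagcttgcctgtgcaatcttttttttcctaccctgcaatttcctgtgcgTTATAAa
Tubb3, chr8:123411303-123411423, plus strand: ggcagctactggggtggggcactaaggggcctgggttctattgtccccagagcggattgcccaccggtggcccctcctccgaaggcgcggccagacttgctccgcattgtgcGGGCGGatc

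Over the full 250 bases before the RefSeq start, the 4 windows had little in common. The GC content was 78.8% for Basp1, 68% for Tubb3, 48.8% for Stmn3 and 41.6% for Dcx. GGGCGG matched 4 times in the Basp1 window and 2 times in that of Tubb3, and was not found in those of Stmn3 or Dcx. CCAAT matched 1 time each for Dcx and Tubb3. TATAA matched in Dcx and Tubb3, each time as TTATAA, which reads on both strands and so counts as 2 overlapping matches. The Tubb3 match lies within the annotated gene and is not in the stretch printed. CAGCTG was in none of the 4. Among all 32851 windows of this length 32.7% held GGGCGG, 33.8% CCAAT, 22.8% TATAA and 13% CAGCTG. A match is a run of letters and not evidence of binding.

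All 10 genes were expressed at high levels, and 4 of them held the same place in each library. Basp1 was the highest of the 10 in all 6 libraries, with a mean of 462 FPKM and place 129 among the 14611 tested genes. Stmn1 followed with 378 FPKM and Stmn2 with 260 FPKM, and both held their places in all 6. Dpysl3 (218 FPKM) exceeded Gap43 (210.3 FPKM) in 4 of 6 libraries, all but replicate 1 of each genotype. Tubb3 averaged 178 FPKM. Dcx (118 FPKM) exceeded Stmn3 (115 FPKM) in 3 of 6, and Stmn3 exceeded Marcks (91.1 FPKM) in 4 of 6, so the order of these neighbours changed between libraries. Marcks ranged from place 6 to place 9 among the members, and in Nmd+/+ replicate 2 its 103.3 FPKM exceeded Tubb3, Dcx and Stmn3. Stmn4 was the lowest in all 6, with 51.8 FPKM and place 2057. Among neighbours in this order, Marcks and Stmn4 alone had ranges over libraries that did not overlap.

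**Figure D1:**
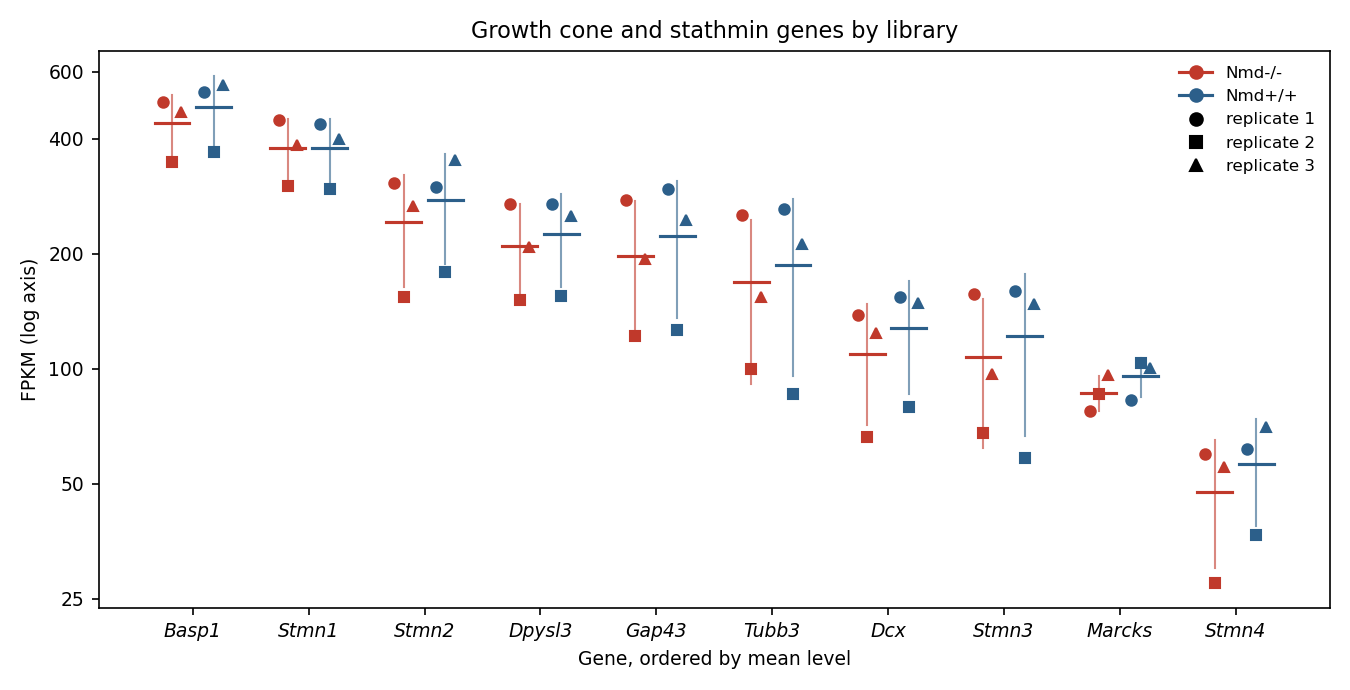
FPKM of the 10 genes on a log axis, ordered by mean level, with Nmd-/- in red to the left of Nmd+/+ in blue; marker shapes give the replicate number, horizontal lines the mean of 3 libraries and vertical lines ± 1 SD. The libraries numbered 2 are the lowest of their genotype for every gene except Marcks, and the genotypes overlap for all 10 genes.

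The growth cone membrane genes were described first. Gap43 (ENSMUSG00000047261, chromosome 16, 42248442 to 42340651, GRCm38), whose product marks regenerating and growing axons, measured 277, 122 and 194 FPKM in Nmd-/- replicates 1, 2 and 3, against 296, 127 and 246 FPKM in Nmd+/+ replicates 1, 2 and 3. Replicate 1 was the highest and replicate 2 the lowest in both genotypes, and the groups overlapped. The means were 198 ± 78 FPKM in Nmd-/-, against 223 ± 87 FPKM in Nmd+/+ (SD, n = 3 each), a ratio of 0.889. The log2 difference of -0.16 (SE 0.39, 95% interval -1.07 to 0.75) did not pass (limma adjusted p = 0.9997).

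Basp1 (ENSMUSG00000045763, chromosome 15, 25363285 to 25413764), which encodes a functional relative of GAP-43, measured 500.0, 347 and 471 FPKM in Nmd-/- replicates 1, 2 and 3, and 531, 369 and 553 FPKM in Nmd+/+ replicates 1, 2 and 3. Each Nmd-/- library was lower than the Nmd+/+ library of its number, by a ratio of 0.941, 0.942 and 0.852, but the groups overlapped. The log2 difference was -0.14 (SE 0.22; limma adjusted p = 0.9997). Marcks (ENSMUSG00000069662, chromosome 10, 37133375 to 37138920), the kinase C substrate found in many cell types, departed from the other 9. It measured 77.7, 85.9 and 96.2 FPKM in Nmd-/- replicates 1, 2 and 3, and 82.7, 103.3 and 100.7 FPKM in Nmd+/+ replicates 1, 2 and 3. Its lowest value in each genotype was that of replicate 1, where the other 9 genes were above their mean over libraries. Marcks was also the steadiest, with a highest value 1.33 times its lowest, and its log2 difference was -0.14 (SE 0.15, 95% interval -0.49 to 0.21; limma adjusted p = 0.9997).

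Among the stathmins, Stmn1 (ENSMUSG00000028832, chromosome 4, 134468320 to 134473843) showed the smallest difference between genotypes. It measured 447, 300.5 and 387 FPKM in Nmd-/- replicates 1, 2 and 3, and 438, 295 and 400.1 FPKM in Nmd+/+ replicates 1, 2 and 3. The means were 378 ± 74 FPKM in each genotype (SD, n = 3 each), and the log2 difference was 0.00184 (SE 0.21, 95% interval -0.50 to 0.50; limma adjusted p = 0.9997). Within each pair of same-numbered libraries the Cufflinks intervals overlapped, which held in all 3 pairs for Stmn1 alone of the 10 genes.

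Stmn2 (ENSMUSG00000027500, chromosome 3, 8509527 to 8561604), also known as SCG10 and studied in human motoneuron disease because its transcript is truncated when TDP-43 is lost, measured 306, 154 and 268 FPKM in Nmd-/- replicates 1, 2 and 3. In Nmd+/+ replicates 1, 2 and 3 it measured 300.3, 179 and 353 FPKM. The intervals of replicate 1 overlapped between genotypes, and replicates 2 and 3 were lower in Nmd-/-, at 0.861 and 0.759 of their counterparts. The log2 difference was -0.19 (SE 0.33, 95% interval -0.97 to 0.58; limma adjusted p = 0.9997). FPKM per gene sums over transcripts and does not show how the Stmn2 transcript was spliced.

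Stmn3 (ENSMUSG00000027581, chromosome 2, 181306459 to 181314500), encoding the SCG10-like protein SCLIP, measured 157, 68.1 and 97.02 FPKM in Nmd-/- replicates 1, 2 and 3, against 160.0, 58.3 and 148 FPKM in Nmd+/+ replicates 1, 2 and 3. Its pairs disagreed: the Nmd-/- library was at 1.17 times its counterpart in replicate 2 and at 0.657 times in replicate 3. Stmn4 (ENSMUSG00000022044, chromosome 14, 66344296 to 66361680), encoding the neuronal stathmin RB3, measured 59.7, 27.5 and 55.1 FPKM in Nmd-/- replicates 1, 2 and 3, and 61.7, 36.6 and 70.3 FPKM in Nmd+/+ replicates 1, 2 and 3. It was lower in Nmd-/- in each pair and had the largest log2 difference of the 10, -0.26 (SE 0.35, 95% interval -1.07 to 0.55; limma adjusted p = 0.9997). For Stmn3 the log2 difference was -0.14 (SE 0.44; limma adjusted p = 0.9997).

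The make-up of the stathmin family overlapped between genotypes. The 4 genes summed to 970.1, 550.1 and 807 FPKM in Nmd-/- replicates 1, 2 and 3, and to 960.2, 569 and 971 FPKM in Nmd+/+ replicates 1, 2 and 3. Stmn1 held 46.1%, 54.6% and 48.0% of that sum in Nmd-/- replicates 1, 2 and 3, and 45.7%, 51.9% and 41.2% in Nmd+/+ replicates 1, 2 and 3. Its share was thus highest in replicate 2 of each genotype, the libraries where all 4 genes were lowest. The ratio of Stmn4 to Stmn2 was the steadiest of those examined, at 0.195, 0.179 and 0.206 in Nmd-/- replicates 1, 2 and 3 and 0.205, 0.205 and 0.199 in Nmd+/+ replicates 1, 2 and 3. The ratio of Stmn3 to Stmn2 moved more, between 0.362 and 0.514 in Nmd-/- and between 0.326 and 0.533 in Nmd+/+.

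The cytoskeletal genes were all highest in replicate 1 and lowest in replicate 2 of both genotypes. Dpysl3 (ENSMUSG00000024501, chromosome 18, 43320979 to 43438286), which encodes CRMP4, a collapsin response mediator that binds tubulin and actin, measured 271, 151 and 208 FPKM in Nmd-/- replicates 1, 2 and 3. In Nmd+/+ replicates 1, 2 and 3 it measured 269.5, 155 and 251 FPKM. The genotypes were within their intervals in replicates 1 and 2, and the log2 difference was -0.10 (SE 0.28; limma adjusted p = 0.9997).

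Dcx (ENSMUSG00000031285, chromosome X, 143855842 to 143933311), the microtubule-binding doublecortin of migrating and young neurons, measured 138, 66.2 and 124 FPKM in Nmd-/- replicates 1, 2 and 3, against 154, 79.3 and 149 FPKM in Nmd+/+ replicates 1, 2 and 3. The Nmd-/- library was lower in each pair by a similar proportion, with ratios of 0.896, 0.835 and 0.832. The means were 109 ± 38 FPKM in Nmd-/-, against 128 ± 42 FPKM in Nmd+/+ (SD, n = 3 each), and the log2 difference of -0.23 (SE 0.35, 95% interval -1.05 to 0.59) did not pass (limma adjusted p = 0.9997). Tubb3 (ENSMUSG00000062380, chromosome 8, 123411424 to 123422015), the neuronal β-tubulin, varied most of all. It measured 252, 99.7 and 154 FPKM in Nmd-/- replicates 1, 2 and 3, and 263, 85.8 and 212 FPKM in Nmd+/+ replicates 1, 2 and 3, so that its highest library was 3.06 times its lowest. The pairs had opposite signs, at 1.16 times the Nmd+/+ value in replicate 2 and 0.725 times in replicate 3, and the log2 difference was -0.10 (SE 0.47; limma adjusted p = 0.9997). GENCODE M21 annotates a read-through gene, Gm20388, across Tubb3 on the same strand, and reads shared between the 2 could not be separated here.

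No member passed the test between genotypes. Of the 10 genes 0 had a limma adjusted p under 0.05, as did 0 of all 14611 tested (0%). At an unadjusted p under 0.05 there were 0 members and 65 of all genes. By their log2 differences 9 of 10 members were lower in Nmd-/-, beside 44% of all tested genes. Stmn1 was the exception, and it too was lower with median-of-ratios scaling or quantile normalization. With both libraries numbered 2 left out, 10 were lower, with a median of -0.19. Leaving out 1 library and keeping its same-numbered counterpart also moves the balance of replicate numbers between the genotypes. Without Nmd-/- replicate 2 alone 9 members were higher and 1 lower; 5 were lower without Nmd+/+ replicate 1, 6 without Nmd+/+ replicate 3, and 10 without any of the other 3 libraries in turn. The values of the genotypes did not separate for any member. Counting both directions, they separated for 390 of all 14611 tested genes, and 0.91% of all genes lay lower in Nmd-/- without overlap. With so small a share, a count of 0 among 10 genes does not set the members apart. The median log2 difference was -0.14 over the members and 0.02 over all tested genes.

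**Figure D2:**
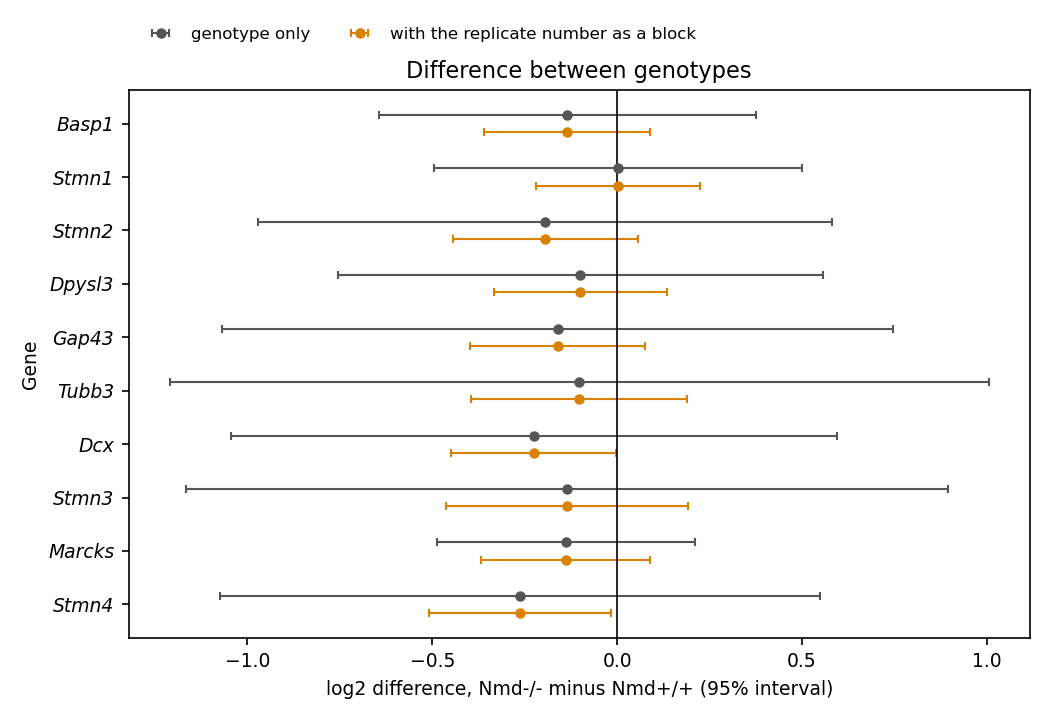
The log2 difference of each gene, Nmd-/- minus Nmd+/+, with its 95% interval, from limma with genotype only (grey) and with the replicate number as a block (orange). The grey intervals of all 10 genes include 0; the orange intervals are narrower and leave out 0 for Dcx and Stmn4, neither of which passed after adjustment over all genes.

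The wide intervals came with a difference between replicate numbers that both genotypes shared. Of the variance of log2(FPKM + 1) over the 6 libraries, replicate number held a median of 92.5% across the members and genotype 3.78%, beside medians of 73.2% and 5.23% over all tested genes. The share of replicate number ran from 70.0% for Marcks to 99.5% for Stmn1. The mean profile of the 10 genes, centred on each gene, stood at 0.31, -0.56 and 0.03 on the log2 scale in Nmd-/- replicates 1, 2 and 3, and at 0.36, -0.47 and 0.33 in Nmd+/+ replicates 1, 2 and 3. Replicate 3 is thus where the genotypes lay furthest apart. Since the members share these 6 libraries, their agreement is not 10 separate observations.

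**Figure D3:**
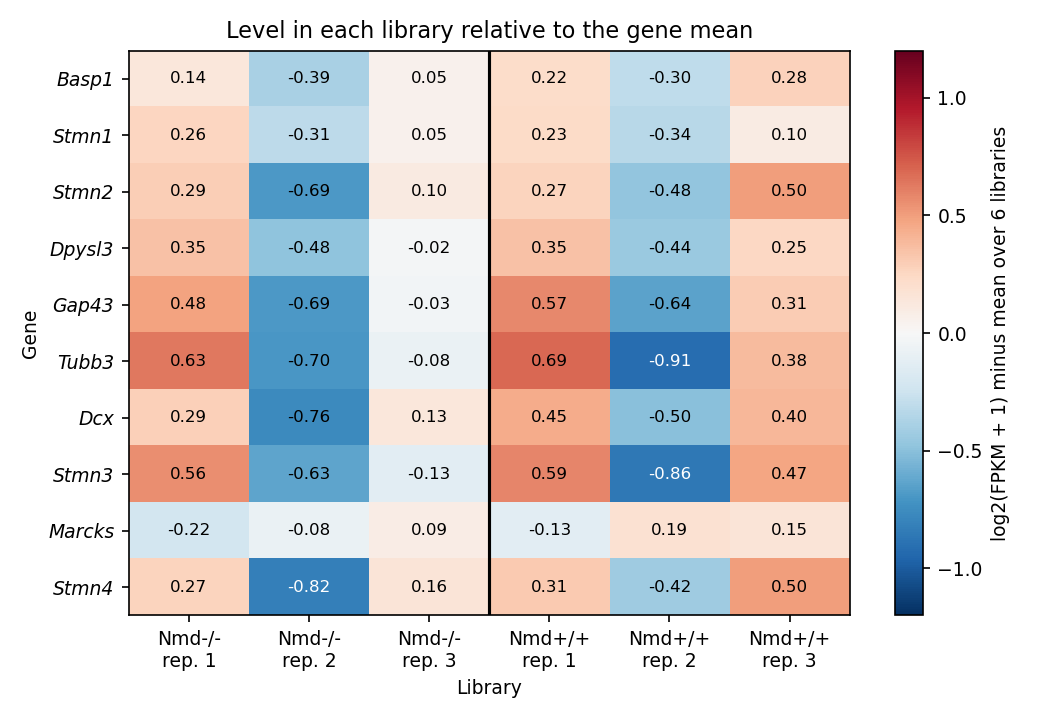
Level of each gene in each library as log2(FPKM + 1) minus the gene's mean over the 6 libraries, with Nmd-/- libraries left of the line and Nmd+/+ libraries right of it. Blue columns at replicate 2 of both genotypes show the common low values, Marcks is the one row whose replicate 2 value is not the lowest in either genotype, and the Nmd-/- replicate 3 column is near 0 where Nmd+/+ replicate 3 is positive.

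With the replicate number as a block the differences stayed the same and their errors shrank. The SE became 0.10 for Dcx and 0.11 for Stmn4, and their 95% intervals ran from -0.45 to -0.0038 and from -0.51 to -0.016. In this blocked fit 2 of 10 members and 711 of all genes had an unadjusted p under 0.05, and 0 passed after adjustment (limma adjusted p = 0.999 for each member). Gap43, Basp1, Marcks, Stmn4 and Dcx were lower in Nmd-/- in 3 of 3 pairs, that is 5 of 10, beside 10.6% of all tested genes, and 0 members were higher in 3 of 3. The members' median difference was -0.05 in pair 1, -0.07 in pair 2 and -0.30 in pair 3, with medians of -0.0014, 0.02 and 0.04 over all tested genes. Measured against estimation error alone, the Cufflinks intervals lay apart for 4 members in pair 1, 7 in pair 2 and 9 in pair 3, beside 10.6%, 39.9% and 40.1% of all tested genes. Among the members the narrowest interval relative to its value was that of Basp1, the most abundant, and the widest that of Stmn4, the least abundant. Between these ends width did not follow level. The half-width was 1.47% to 1.91% for Marcks, at 91.1 FPKM, and 3.28% to 3.66% for Stmn1, at 378 FPKM. Most tested genes were less abundant than any member, so these shares do not compare genes at like levels.

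**Figure D4:**
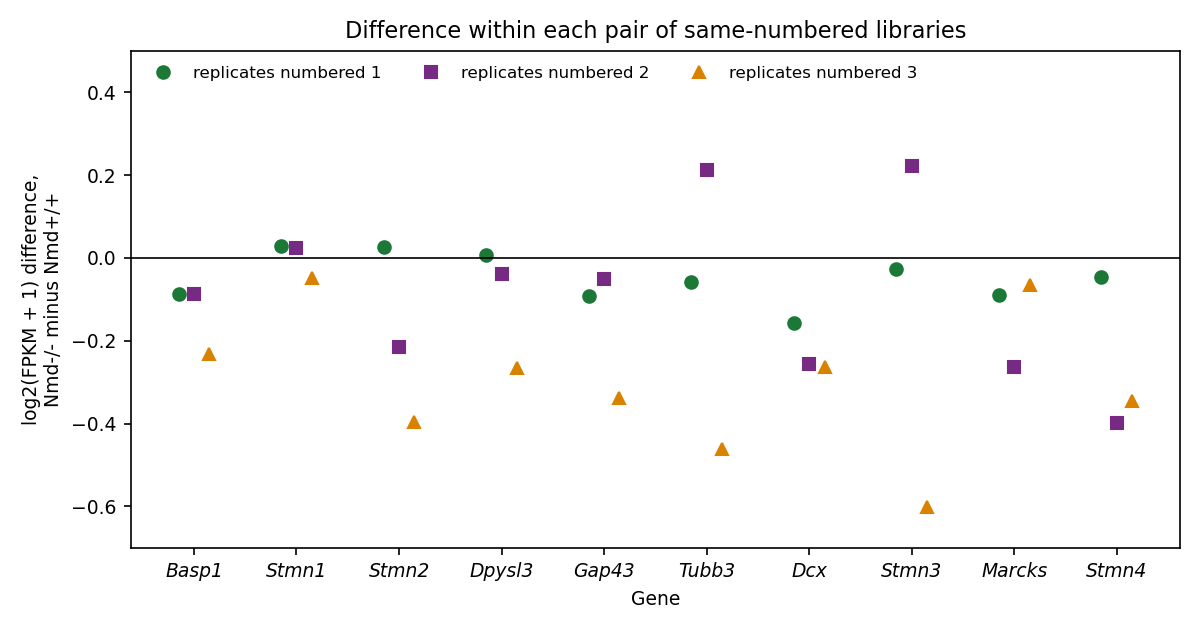
Difference in log2(FPKM + 1), Nmd-/- minus Nmd+/+, between libraries with the same replicate number, for each gene. Pair 3 (triangles) is below 0 for all 10 genes, pair 1 (circles) lies between -0.16 and 0.03, and pair 2 (squares) is above 0 for Stmn3, Tubb3 and, by 0.02, Stmn1.

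Markers of neurons in general moved with the members. The 16 pan-neuronal markers summed to 1914, 1002 and 1452 FPKM in Nmd-/- replicates 1, 2 and 3, and to 2015, 1084 and 1870.4 FPKM in Nmd+/+ replicates 1, 2 and 3. The same libraries were high and low as for the sum of the 10 members, 2487, 1423 and 2054 FPKM in Nmd-/- replicates 1, 2 and 3 and 2557, 1489 and 2482 FPKM in Nmd+/+ replicates 1, 2 and 3. Of the 16, 15 were lower in Nmd-/- by their log2 differences and 8 in 3 of 3 pairs, 0 passed, and the median was -0.18. Rtn1, the reticulon gene that holds much of the sum, measured 553 ± 198 FPKM in Nmd-/-, against 648 ± 194 FPKM in Nmd+/+. The neurofilament gene Nefl measured 40.5 ± 12.2 FPKM in Nmd-/-, against 52.7 ± 18.3 FPKM in Nmd+/+, and the secretogranin gene Scg3 measured 65.4 ± 12.1 FPKM in Nmd-/-, against 78.0 ± 14.8 FPKM in Nmd+/+ (SD, n = 3 each).

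Expressed relative to that sum, 9 of the members differed less between libraries, by unequal amounts. The 10 genes together stood at 1.30, 1.42 and 1.42 times the pan-neuronal sum in Nmd-/- replicates 1, 2 and 3, and at 1.27, 1.37 and 1.33 times in Nmd+/+ replicates 1, 2 and 3. The ratio of the highest to the lowest library became 1.26 for Gap43 in place of 2.42, 1.27 for Stmn2 in place of 2.29, 1.13 for Dpysl3 in place of 1.79 and 1.66 for Tubb3 in place of 3.06. For Basp1 and Stmn1 it changed little, to 1.33 in place of 1.59 and to 1.40 in place of 1.52. Marcks went the other way, with 2.35 in place of 1.33. When all genes were scaled to the pan-neuronal markers, 3 members were lower and 7 higher in Nmd-/-, with 0 passing, and 0 were lower in 3 of 3 pairs, beside 0.876% of all genes. That scaling moved the median of all tested genes to 0.19, against which the members' median was 0.03. The same shift applies to every gene, so the distance between these medians could not change. The part of the neurons' share of the cultures in the members' levels was not tested.

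**Figure D5:**
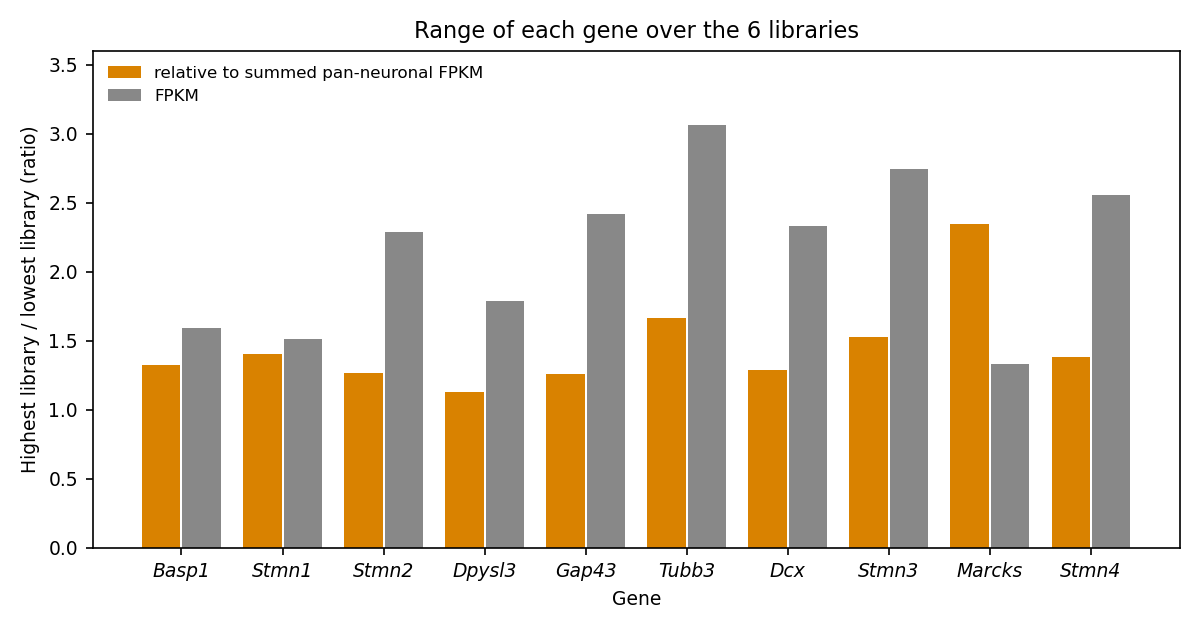
Ratio of the highest to the lowest of the 6 libraries for each gene, relative to the summed FPKM of 16 pan-neuronal markers (orange) and as FPKM (grey). The ratio is smaller on the relative scale for 9 genes and larger for Marcks.

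Lists of other cells in the cultures were counted in the same way, as values beside those of the members. All 4 motoneuron markers tested were lower in Nmd-/- by their log2 differences. Of these, 2 were lower in 3 of 3 pairs, beside 10.6% of all tested genes. They were Gfra1 at 11.8 ± 2.8 FPKM in Nmd-/-, against 14.1 ± 3.5 FPKM in Nmd+/+, and Nefh at 7.17 ± 2.28 FPKM in Nmd-/-, against 9.42 ± 3.67 FPKM in Nmd+/+ (SD, n = 3 each; limma adjusted p = 0.9997 for both). The 4 are not the whole list: Chat, Mnx1, Isl2, Prph and Slc5a7 stayed under 1 FPKM and were not tested. Of 8 markers of other spinal neurons 6 were lower, and their sum ranged from 138 to 259.6 FPKM in Nmd-/- and from 125 to 274 FPKM in Nmd+/+. All 10 dividing cell markers were higher in Nmd-/- by their log2 differences, but 1 of them in 3 of 3 pairs, with a sum of 541 to 678 FPKM in Nmd-/- and 447 to 695 FPKM in Nmd+/+. Radial glia and astrocyte markers were lower for 6 of 10, 4 of them in 3 of 3 pairs, and 1 marker was higher in 3 of 3. Their sums were 4210.2 to 5301 FPKM in Nmd-/- and 3464 to 4669 FPKM in Nmd+/+. Most of these sums was the intermediate filament gene Vim, at 3781 ± 582 FPKM in Nmd-/-, against 3162 ± 683 FPKM in Nmd+/+ (SD, n = 3 each; limma adjusted p = 0.9997). All 4 tested oligodendrocyte lineage markers were lower, 2 of them in 3 of 3 pairs. Of 7 fibroblast markers 6 were higher, 4 of them in 3 of 3 pairs, beside 2173 of the 14611 tested genes, and 0 genes of any of these lists passed. The part of these cells in the members' levels was not tested.

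Genes that work beside the members were counted from lists as well. Of 27 other growth cone and axon outgrowth genes in the tables, all of them tested, 21 were lower in Nmd-/- and 6 higher, 5 were lower in 3 of 3 pairs, 0 passed, and the median was -0.05. The most abundant was Uchl1, a neuronal ubiquitin hydrolase, at 452 ± 99 FPKM in Nmd-/-, against 471 ± 137 FPKM in Nmd+/+ (SD, n = 3 each). The 2 with the smallest p were Gpm6a, a membrane glycoprotein of filopodia, at 141 ± 18 FPKM in Nmd-/-, against 166 ± 32 FPKM in Nmd+/+, and Rufy3, a regulator of axon number, at 34.1 ± 9.0 FPKM in Nmd-/-, against 39.8 ± 9.2 FPKM in Nmd+/+; both were lower in 3 of 3 pairs.

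Kinases, phosphatases and palmitoyl transferases that can modify the members were lower for 15 of 20, with a median of -0.09 and 0 passing. Mapk8, which encodes the stathmin kinase JNK1, measured 35.1 ± 6.9 FPKM in Nmd-/-, against 40.5 ± 6.6 FPKM in Nmd+/+. The calcineurin gene Ppp3cb measured 82.5 ± 10.8 FPKM in Nmd-/-, against 93.8 ± 8.3 FPKM in Nmd+/+, and Camk2d, the most abundant, measured 96.8 ± 11.7 FPKM in Nmd-/-, against 104.5 ± 10.3 FPKM in Nmd+/+ (SD, n = 3 each). Regulators of the members' transcripts were lower for 8 of 15, with a median of -0.08 and 0 passing. Elavl4, encoding HuD, which stabilises Gap43 mRNA, measured 84.0 ± 22.8 FPKM in Nmd-/-, against 96.6 ± 28.1 FPKM in Nmd+/+. Rest, a repressor of neuronal genes including Stmn2, measured 3.14, 4.72 and 3.49 FPKM in Nmd-/- replicates 1, 2 and 3. In Nmd+/+ replicates 1, 2 and 3 it measured 3.09, 4.03 and 2.68 FPKM. Rest was highest in replicate 2 of both genotypes, as was Vim, and its part in the members' levels was not tested. Hnrnpr, an RNA-binding protein of motor axons, measured 84.4 ± 6.8 FPKM in Nmd-/-, against 91.5 ± 5.7 FPKM in Nmd+/+ (limma adjusted p = 0.9997 for each of these genes).

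The genes whose profile lay closest to the members' mean were sought among the other tested genes with at least 10 FPKM. Likeness was the root mean square distance between centred log2 profiles over the 6 libraries, which same-numbered libraries share in large part. The 5 nearest were Lrfn5, a synaptic adhesion molecule gene, at 0.031, the vacuolar ATPase subunit gene Atp6v1g2 at 0.036, the neuron navigator gene Nav1 at 0.037, the neuronal adaptor subunit gene Ap3b2 at 0.039 and Tspyl4 at 0.041. Nav1, for example, measured 31.0, 16.1 and 25.4 FPKM in Nmd-/- replicates 1, 2 and 3, and 30.7, 16.5 and 29.6 FPKM in Nmd+/+ replicates 1, 2 and 3. Of the members themselves Dpysl3 lay closest to the mean profile (0.057), and Tubb3 (0.27) and Marcks (0.45) furthest. With Stmn1 and Marcks left out of the profile, 0 of these 5 genes remained among the nearest, which were then Tagln3, Syn1, Dnm1, Dusp8 and Asic1.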

How the data were processed

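RNA-seq was deposited for 6 libraries as FPKM per gene. Per the labels, the libraries were prepared from total RNA with the Lexogen mRNA-Seq kit; per the file headers, FPKM, its 95% interval and a status were made by the authors with Cufflinks. Cufflinks 2.2.1, SAMtools 1.3, cutadapt 1.8, Trim Galore 0.4.0 and FastQC 0.10.1 are named in the submitters' processing notes, with the build GRCm38. Not given in the sources used here are the aligner version, annotation release and strand setting. Coordinates are printed from 1. FPKM are relative to each library's own total, with no stated scaling between libraries.

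Nmd-/- minus Nmd+/+ was tested in R 4.3.3 with limma 3.58.1 and an intensity trend on log2(FPKM + 1), over 14611 genes with a mean of at least 1 FPKM and an accepted status in all 6 libraries. Adjusted p-values are Benjamini-Hochberg values over all of them, two-sided, with a threshold of 0.05. Fold changes on this scale understate those of low genes. The procedure was run on simulated data with less noise than these libraries and without the shift that same-numbered libraries share. That run shows neither its power nor its error rate on these data. Same-numbered libraries deviated together from their group means (correlations across genes of 0.82, 0.70 and 0.39 for numbers 1, 2 and 3). Libraries of unlike number correlated at -0.81 to 0.28, the highest being Nmd-/- replicate 1 with Nmd+/+ replicate 3. Such deviations cancel out within a genotype, so correlations between unlike numbers are in part fixed by those between like numbers. The pairing was thus weakest for number 3, the pair with the largest median difference of the members. This pairing comes from the data and not from a label, and the block and the counts of pairs rest on it. Members and lists were chosen with earlier results of these data known. Named genes were the members, from each list the 2 with the smallest p and the most abundant, Ighmbp2, and the 5 nearest profiles. For the lists of other spinal neurons, glia, dividing cells and fibroblasts, the report gives counts and sums in place of the single genes this rule names, other than Vim, a shortening made after their values were seen; those that changed direction under an alternative are in the closing section. Isl1, Chat, Mnx1, Isl2, Prph and Slc5a7 are given as markers only.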

Additional observations from a re-analysis of the deposited data

How the results depend on the processing

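The counts of 0 called genes and 0 called members held under a pseudocount of 0.1, no filter, a minimum mean of 5 FPKM, quantile normalization, median-of-ratios scaling, no intensity trend, the replicate block (0 genes, alone or with median-of-ratios scaling), both libraries numbered 2 left out, and each library left out. Scaling to the pan-neuronal markers also gave 0 members; combined with the block, which was chosen after seeing the data, it called 17 genes, none of them a member. The count of members lower in 3 of 3 pairs stayed at 5 under the smaller pseudocount and both other scalings and was 0 when scaled to the pan-neuronal markers, where Stmn1 was higher in 3 of 3; these settings were also chosen after seeing the data. Of the 5 nearest profiles 0 were shared when Stmn1 and Marcks were left out of the mean.

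With same-numbered libraries kept in balance, 9 members were lower under the replicate block, 10 under the block with median-of-ratios scaling and 10 with both libraries numbered 2 left out. Scaled to the pan-neuronal markers, with or without the block, log2 differences became 0.0099 for Gap43, 0.036 for Basp1 and 0.032 for Marcks. Those of Stmn3, Dpysl3 and Tubb3 became 0.035, 0.071 and 0.068. For other genes they became 0.13 for Uchl1, 0.059 for Camk2d, 0.054 for Hnrnpr and 0.14 for Gad1. This scaling shifts every gene by the same amount, here upward, to a median of 0.19 over all tested genes. The members' median of 0.03 lay below that as it did before scaling, which the scaling could not change. Stmn1 became -0.022 with median-of-ratios scaling (also with the block), -0.041 with quantile normalization and -0.0093 with both libraries numbered 2 left out. Leaving out each library, which unbalances the replicate numbers, gave, from the lowest without Nmd+/+ replicate 2 to the highest without Nmd-/- replicate 2, -0.52 to 0.15 for Gap43, -0.32 to 0.025 for Basp1, -0.17 to 0.16 for Stmn1, -0.48 to 0.10 for Stmn2, -0.60 to 0.15 for Stmn3, -0.54 to 0.082 for Stmn4, -0.35 to 0.12 for Dpysl3, -0.53 to 0.098 for Dcx, -0.59 to 0.22 for Tubb3, -0.39 to 0.0047 for Rufy3, -0.31 to 0.15 for Uchl1 and -0.51 to 0.041 for Rtn1. Marcks kept its direction, from -0.24 to -0.065. For markers of other cells the ranges were -0.40 to 0.25 for the inhibitory neuron enzyme Gad1, -0.67 to 0.013 for the oligodendrocyte factor Olig1, -0.092 to 0.95 for fibronectin Fn1 and -1.03 to 2.02 for the collagen Col1a1.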
